A study of Mus musculus with 8 samples.

Results

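The comparison set the injured cortex of mice labelled floxed against the uninjured cortex of mice labelled deficient in microglia-derived Il6. Its members were chosen by label: 4 floxed cryolesioned animals and 4 Il6-deficient control animals, 8 of the 16 animals in the series. Both groups contributed total RNA of the right fronto-parietal cortex. The other groups were 4 Il6-deficient cryolesioned and 4 floxed control animals. A cryolesion is a focal freeze injury of the cortical surface. The floxed allele, the Cre driver behind the microglial deficiency, the deleted part of the gene, the age and sex of the animals and the time after the lesion are not given in the sources used here. The groups differed in both genotype and lesion, so that their difference holds both effects at once.

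Interleukin-6 is a cytokine released early after brain injury by microglia, astrocytes and neurons. It binds its receptor Il6ra and the shared signal transducer Il6st (gp130), and JAK kinases then activate the transcription factor Stat3, whose targets include its own inhibitor Socs3. In injured cortex this pathway is known for its part in astrocyte reactivity, the acute-phase genes and the recruitment of blood leukocytes. Microglia are the resident macrophages of the brain, and the fractalkine receptor Cx3cr1 is among their most widely used markers.

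RNA of 2 animals was hybridised to each of 8 two-colour arrays, each animal being used once, and the arrays formed a closed loop. On 2 arrays, called shared arrays here, a floxed cryolesioned animal met an Il6-deficient control, with the dyes swapped: floxed cryolesioned animal 1 with control 3, and animal 2 with control 4. Il6-deficient controls 1 and 2 met floxed controls on control arrays 1 and 2. Floxed cryolesioned animals 3 and 4 met Il6-deficient cryolesioned animals on lesion arrays 1 and 2, and deficient-lesion arrays 1 and 2 held Il6-deficient cryolesioned animals and floxed controls. In the fit, the shared arrays carried 75% of the weight of the difference and the other 6 arrays 25%. Median raw intensities were 111 to 144 units in the red channel and 45 to 59 in the green. Well-above-background probes made up 59.2% to 65.9% of an array, and no spot was saturated. The number of arrays limits the precision. The labels call the animals biological replicates.

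A level below is the log2 channel intensity of a probe in an animal. A log2 difference is floxed cryolesioned minus Il6-deficient control, fitted to the array ratios with its standard error (SE), with 4 animals a group. The SE comes from the residuals of the fit to all 8 arrays and is not the spread of the 4 levels of a group. Since the shared arrays weigh more, a log2 difference can differ from the difference of the mean levels. A gene rose or fell where its adjusted p was under 0.05. The cortical projection neuron genes Tbr1 and Neurod6 were well above background in all 8 animals, and so was the striatal gene Drd1. Il6 itself was near background. Its brighter probe had levels of 6.40, 6.83, 6.20 and 6.57 in floxed cryolesioned animals 1 to 4, against 5.86, 5.99, 5.96 and 5.78 in Il6-deficient controls 1 to 4. This probe exceeded background in 3 of the 4 floxed cryolesioned animals and in none of the 4 Il6-deficient controls, a difference of at least 1.40-fold. The levels did not overlap, and the two-sided exact permutation test gave p = 0.0286, the smallest that its 70 splits allow. Since the cryolesion and the genotype both differed, this value does not separate them. Xist, the transcript of the inactive X chromosome, exceeded background in 0 of 4 animals of the floxed cryolesioned group and in 1 of 4 Il6-deficient controls, control 2. In the other groups it did so in 0 of 4 Il6-deficient cryolesioned animals and in 3 of 4 floxed controls, 1, 3 and 4. The 4 Y-linked genes measured were all above background in the animals without Xist and in none of those with it.

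Of 29362 genes and unnamed transcripts tested, 14.7% (4325) passed the test in either direction, 1985 higher (6.76%) and 2340 lower (7.97%) in floxed cryolesioned cortex. The shares of 6.76% and 7.97% are the background for the counts of each gene list below. At least 2-fold rises numbered 569 (1.94%) and at least 2-fold falls 340 (1.16%). The median log2 difference over everything tested was -0.02. The rises of at least 2-fold had a median of 1.48 and the falls one of -1.15. The levels of the 2 groups did not overlap in 527 of the 569 and in 329 of the 340, against 2954 higher (10.1%) and 4157 lower (14.2%) among all that were tested. Without shared array 1 the number past the test was 1541, without shared array 2 it was 844, without lesion array 2 it was 1951 and without deficient-lesion array 2 it was 2475. With each array left out in turn, 347 of the 569 rises and 139 of the 340 falls passed every time. These are bulk samples, in which fewer cells of a type and less RNA per cell cannot be told apart.

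Timp1, Cxcl10, Spp1 and Ccl12 had the 4 highest log2 differences among named genes. Timp1, an inhibitor of metalloproteinases, had levels of 12.57, 13.81, 11.995 and 12.66 in floxed cryolesioned animals 1 to 4, against 7.32, 7.16, 7.82 and 8.45 in Il6-deficient controls 1 to 4. Every floxed cryolesioned animal lay above every control, and the log2 difference was 4.93 ± 0.22 (SE), adjusted p = 0.000295. Ccl12, a ligand of the monocyte receptor Ccr2, had levels of 12.06, 11.98, 12.12 and 11.90 in floxed cryolesioned animals, against 6.89, 6.48, 7.399 and 7.35 in Il6-deficient controls. The floxed cryolesioned animals lay within a narrow range, far above the controls, and the log2 difference was 4.66 ± 0.14 (SE), adjusted p = 6.91e-05. Ccl2, another Ccr2 ligand, had levels of 11.90, 12.16, 11.10 and 11.65 in floxed cryolesioned animals, against 6.21, 6.13, 7.91 and 8.002 in Il6-deficient controls. Controls 3 and 4, which shared arrays with floxed cryolesioned animals, lay above controls 1 and 2. The log2 difference of Ccl2 was 4.05 ± 0.11 (SE), adjusted p = 6.42e-05. It was well above background in 3 of the 4 controls.

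Cxcl10, an interferon-induced ligand of Cxcr3, a receptor on T cells, had levels of 12.25, 12.66, 9.27 and 11.68 in floxed cryolesioned animals, against 6.80, 6.10, 6.80 and 6.79 in Il6-deficient controls. Floxed cryolesioned animal 3 was the lowest of its group and still above every control. The log2 difference of Cxcl10 was 4.87 ± 0.67 (SE), adjusted p = 0.00658, and 3 of 4 controls were well above background. Spp1 (osteopontin), a secreted phosphoprotein of activated macrophages, had levels of 13.41, 13.54, 9.90 and 11.23 in floxed cryolesioned animals, against 8.23, 7.83, 7.81 and 7.90 in Il6-deficient controls. Animal 3 was again the lowest, and the log2 difference was 4.79 ± 0.61 (SE), adjusted p = 0.00505. Ccl4, a chemokine of activated macrophages and microglia, had levels of 11.27, 11.00, 8.61 and 9.88 in floxed cryolesioned animals, against 6.16, 6.09, 6.37 and 6.06 in Il6-deficient controls. It was well above background in 2 of 4 controls, and its log2 difference was 4.44 ± 0.32 (SE), adjusted p = 0.00105.

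**Figure D1:**
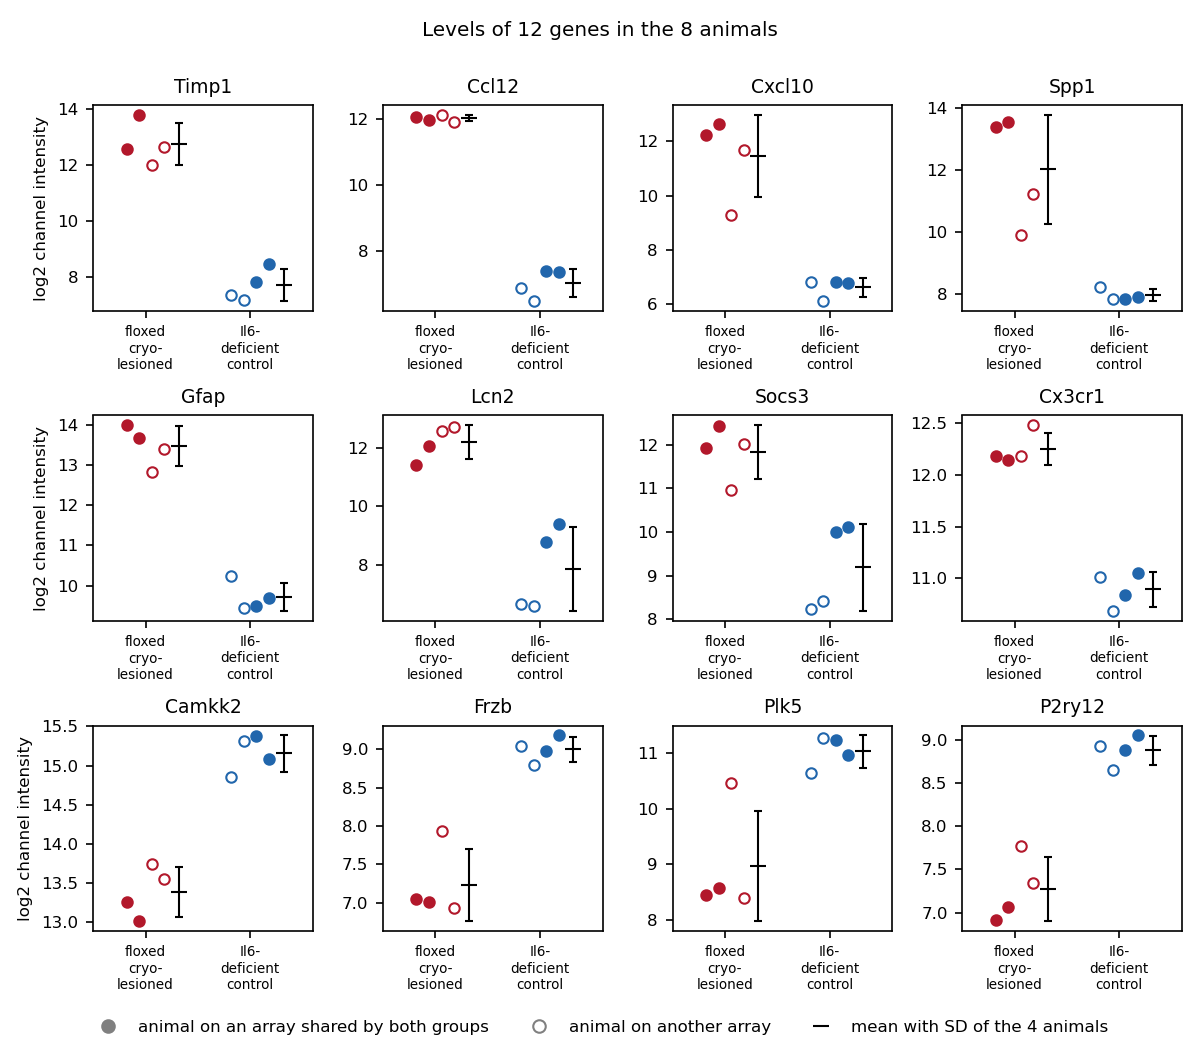
Levels (log2 channel intensity) of 12 genes in each floxed cryolesioned animal (left in each panel) and each Il6-deficient control (right); filled points are animals on an array that held both groups, open points animals on other arrays, and the dash and bar give the mean and SD over 4 animals. Timp1, Ccl12, Cxcl10, Spp1, Gfap, Lcn2, Socs3 and Cx3cr1 lie higher and Camkk2, Frzb, Plk5 and P2ry12 lower in floxed cryolesioned animals, with no overlap.

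Of the 24 chemokines and receptors that passed the filter on dim probes, 14 rose and 2 fell, with a median log2 difference of 1.13. Ccl7, also a Ccr2 ligand, rose by 3.44 ± 0.10 (SE) on the log2 scale, with 2 of 4 controls well above background. The falls were Cxcl12 and Cx3cl1. Cxcl12, the ligand of Cxcr4 that blood vessels and neurons make at rest, had levels of 10.03, 10.07, 9.80 and 9.64 in floxed cryolesioned animals, against 11.16, 11.54, 11.48 and 11.38 in Il6-deficient controls, and the log2 difference was -1.40 ± 0.12 (SE), adjusted p = 0.00139. Cx3cl1, the neuronal ligand of Cx3cr1, had a log2 difference of -1.19 ± 0.32 (SE), adjusted p = 0.0496. Its call was lost without 6 of the 8 arrays, with an adjusted p of 0.0709 without control array 1, 0.107 without shared array 1, 0.167 without shared array 2, 0.0791 without lesion array 1, 0.119 without lesion array 2 and 0.0964 without deficient-lesion array 2. Of 26 cytokine signalling genes of the interleukin-1 and TNF families and others, 16 rose and 1 fell, with a median of 0.85. The fall was that of the receptor Csf1r (-0.38 ± 0.09, SE), whose adjusted p was 0.0766 without control array 1, 0.119 without shared array 1, 0.137 without shared array 2, 0.084 without lesion array 2 and 0.0753 without deficient-lesion array 2. The count of rises was 9 without shared array 1 and 8 without shared array 2. The alarmin Il33 rose by 2.13 ± 0.19, the receptor chain Il13ra1 by 1.98 ± 0.17 and the TNF receptor Tnfrsf1a by 2.40 ± 0.22 on the log2 scale (SE).

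The promoters of 4 genes are printed because each holds the letters of a STAT or AP-1 motif. The windows of Timp1, Spp1, Ccl12, Tgm1, Lgals3, Cd44, Stat3, Socs3, Il6ra, Il6st and Lcn2 hold neither motif. Single windows were looked up only for some of the largest rises and falls and the genes chosen by name. Among these, Gfap's alone holds the STAT letters. Npy1r, Il6 and Mt2 also hold the AP-1 letters. The windows are RefSeq's, on build GRCm38.p6, 250 bases before to 50 bases after the annotated start, 5′ to 3′ on the gene's strand. Capitals mark TTCCNGGAA, the palindromic motif of STAT factors, or TGANTCA, that of AP-1. Both strands were searched, and no printed window holds both motifs.
Gfap (chr11:102897151-102897450, minus strand): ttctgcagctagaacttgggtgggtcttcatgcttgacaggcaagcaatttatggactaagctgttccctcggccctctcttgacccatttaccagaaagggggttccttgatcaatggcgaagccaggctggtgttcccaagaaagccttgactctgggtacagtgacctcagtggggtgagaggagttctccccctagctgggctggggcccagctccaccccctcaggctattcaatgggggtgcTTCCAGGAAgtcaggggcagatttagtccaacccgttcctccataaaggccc
Cxcl10 (chr5:92348840-92349139, minus strand): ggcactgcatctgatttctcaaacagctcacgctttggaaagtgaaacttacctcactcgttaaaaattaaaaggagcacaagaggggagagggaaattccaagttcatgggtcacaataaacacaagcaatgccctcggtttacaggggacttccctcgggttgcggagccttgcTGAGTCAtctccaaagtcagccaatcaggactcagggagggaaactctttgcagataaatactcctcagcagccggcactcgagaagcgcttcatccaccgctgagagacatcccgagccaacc
Emp1 (chr6:135362681-135362980, plus strand): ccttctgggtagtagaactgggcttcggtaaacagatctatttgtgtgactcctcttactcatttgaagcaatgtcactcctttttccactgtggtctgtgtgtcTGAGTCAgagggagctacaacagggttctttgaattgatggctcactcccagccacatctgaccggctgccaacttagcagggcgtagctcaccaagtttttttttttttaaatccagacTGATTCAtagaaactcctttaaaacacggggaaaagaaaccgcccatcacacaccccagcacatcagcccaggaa
Osmr (chr15:6874264-6874563, minus strand): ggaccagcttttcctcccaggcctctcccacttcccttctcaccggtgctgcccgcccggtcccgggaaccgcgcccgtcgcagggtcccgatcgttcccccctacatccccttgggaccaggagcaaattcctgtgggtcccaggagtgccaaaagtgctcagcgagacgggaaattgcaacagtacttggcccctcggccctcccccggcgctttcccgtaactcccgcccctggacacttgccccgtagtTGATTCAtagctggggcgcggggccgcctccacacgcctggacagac
In Gfap the STAT letters begin 2 bases before the start. In Cxcl10 the AP-1 letters begin 74 bases before it, in Emp1 the first of 2 such matches begins 145 bases before it, and in Osmr the match begins 3 bases after it. Of the 500 named genes that rose at least 2-fold, 388 had a promoter in the table, and of the 313 named genes that fell as far, 233 had one. The STAT letters were in 2.06% of the promoters of the rises and 0.858% of those of the falls, against 1.15% of all 27025 promoters and 1.17% of the 13301 of named genes tested. The AP-1 letters were in 11.9% and 3.43%, against 7.93% and 5.53%. A match is a description of the letters and not a binding site.

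Along the interleukin-6 pathway, 21 of 32 measured family members, receptors and targets rose and 0 fell, with a median log2 difference of 0.83. The count of rises was 7 without shared array 1 and 9 without shared array 2. Among the receptors, the 2 that bind interleukin-6 did not pass the test. Il6ra had a log2 difference of 0.48 ± 0.23 (SE), adjusted p = 0.217. It passed with the direct arrays alone (adjusted p = 0.0343) and with separate channels (0.0424), and its difference was -0.15 from the indirect arrays alone. Il6st had a log2 difference of 0.53 ± 0.15 (SE), adjusted p = 0.0565. Il6st passed without control array 2 (adjusted p = 0.0202), without lesion array 1 (0.0274) and without deficient-lesion array 1 (0.0363). Of the settings other than leaving out single arrays, it passed in 5 and did not in 9. Osmr, which pairs with Il6st to bind oncostatin M, had levels of 10.33, 10.85, 9.92 and 10.41 in floxed cryolesioned animals, against 7.36, 7.51, 7.51 and 7.53 in Il6-deficient controls. The groups were far apart, with a log2 difference of 2.87 ± 0.18 (SE), adjusted p = 0.000742.

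Downstream, Stat3 had levels of 12.21, 12.65, 11.64 and 12.10 in floxed cryolesioned animals, against 10.25, 10.37, 10.51 and 10.59 in Il6-deficient controls. The groups did not overlap, and the log2 difference was 1.69 ± 0.17 (SE), adjusted p = 0.00263. Socs3, the feedback inhibitor, had levels of 11.94, 12.43, 10.97 and 12.02 in floxed cryolesioned animals, against 8.23, 8.41, 9.99 and 10.13 in Il6-deficient controls. Controls 3 and 4 lay well above controls 1 and 2, within 1 log2 unit of floxed cryolesioned animal 3. The log2 difference of Socs3 was 1.99 ± 0.22 (SE), adjusted p = 0.00327. Lcn2, an iron-binding acute-phase protein, had levels of 11.41, 12.08, 12.59 and 12.72 in floxed cryolesioned animals, against 6.65, 6.58, 8.78 and 9.40 in Il6-deficient controls. Here too controls 3 and 4 were the high ones, and the log2 difference was 2.69 ± 0.09 (SE), adjusted p = 0.000123. Cebpd, a transcription factor of the acute phase, had levels of 13.31, 13.32, 12.84 and 13.30 in floxed cryolesioned animals, against 10.28, 9.01, 9.38 and 9.45 in Il6-deficient controls, and rose by 3.70 ± 0.21 (SE), adjusted p = 0.000546. The serine protease inhibitor Serpina3n rose by 3.49 ± 0.25 (SE), adjusted p = 0.000975.

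Of 37 genes of reactive astrocytes, 31 rose and none fell, 27 of them at least 2-fold, with a median log2 difference of 1.99. Gfap, the intermediate filament of astrocytes, had levels of 14.00, 13.68, 12.83 and 13.39 in floxed cryolesioned animals, against 10.24, 9.45, 9.50 and 9.69 in Il6-deficient controls. The lowest floxed cryolesioned animal lay above the highest control, and the log2 difference was 4.01 ± 0.22 (SE), adjusted p = 0.000508. Ptx3, a pentraxin, had levels of 9.67, 9.61, 9.40 and 10.02 in floxed cryolesioned animals, against 5.93, 5.85, 6.14 and 5.80 in Il6-deficient controls. No control was well above background, so that the difference of mean levels was at least 12.4-fold. The log2 difference fitted to the ratios, where the shared arrays weigh more than the other arrays, was 3.54 ± 0.18 (SE), adjusted p = 0.00038. Tgm1, a transglutaminase, rose by 4.03 ± 0.14, the membrane protein Emp1 by 3.99 ± 0.48 and the hyaluronan receptor Cd44 by 3.82 ± 0.26 on the log2 scale (SE). Tgm1 was well above background in 2 of 4 controls. The mean level of the astrocyte list was 10.41, 10.60, 9.46 and 10.24 in floxed cryolesioned animals 1 to 4, against 7.89, 7.67, 8.06 and 8.08 in Il6-deficient controls 1 to 4. Animal 3 was the lowest of the floxed cryolesioned animals.

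Genes of resting astrocytes moved less. Of 28, 9 fell and 2 rose, with a median of -0.40. The count of falls was 5 without control array 1, 4 without shared array 1, 4 without shared array 2, 5 without lesion array 2 and 5 without deficient-lesion array 2, and 5 with the scanner software's processed intensities. The rises, Sox9 and Aqp4, numbered 1 without shared array 1 and 0 without shared array 2. Bcan (brevican), a proteoglycan of the perineuronal matrix, had levels of 13.06, 12.93, 13.57 and 13.41 in floxed cryolesioned animals, against 14.36, 14.58, 14.58 and 14.64 in Il6-deficient controls. The groups did not overlap, and the log2 difference was -1.57 ± 0.14 (SE), adjusted p = 0.0019. Mfge8, a bridging protein for phagocytosis, fell by 1.25 on the log2 scale and glutamine synthetase, Glul, fell by 1.01.

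Interferon-stimulated genes rose almost throughout: 31 of 33 passed the test, none fell, and the median log2 difference was 1.21. The count was 12 without shared array 1 and 10 without shared array 2. Oas1a, an antiviral RNA sensor, had levels of 10.10, 9.78, 8.65 and 10.01 in floxed cryolesioned animals, against 7.45, 7.51, 8.08 and 7.88 in Il6-deficient controls. The groups did not overlap, and the log2 difference was 1.84 ± 0.11 (SE), adjusted p = 0.000546. Ifi27l2a, an interferon-induced mitochondrial protein, had levels of 10.12, 10.16, 9.56 and 10.68 in floxed cryolesioned animals, against 7.90, 7.49, 7.94 and 8.94 in Il6-deficient controls, a log2 difference of 1.72 ± 0.11 (SE), adjusted p = 0.000732. Bst2 (tetherin) rose by 1.78 ± 0.19 and Ifi35 by 1.36 ± 0.10 (SE). The list's mean level was 9.69, 9.60, 8.54 and 9.20 in floxed cryolesioned animals, against 7.91, 7.81, 8.22 and 8.12 in Il6-deficient controls. Floxed cryolesioned animal 3 lay nearest to the controls. Among antigen presentation genes, 8 of 21 rose and 0 fell, with a median of 0.45 (0.166 without shared array 2). That count was 2 without shared array 1, 1 without shared array 2, 5 without lesion array 2 and 4 without deficient-lesion array 2, and 5 with median centring. Psmb8, a subunit of the immunoproteasome, rose by 1.54 ± 0.11 on the log2 scale (SE).

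Among 35 genes of activated phagocytes, 27 rose and 1 fell, with a median log2 difference of 1.504. Lgals3 (galectin-3), a lectin of phagocytosing cells, had levels of 11.80, 11.69, 9.71 and 11.10 in floxed cryolesioned animals, against 7.41, 6.43, 7.46 and 7.69 in Il6-deficient controls. No animal of one group lay among the other, and the log2 difference was 3.87 ± 0.23 (SE), adjusted p = 0.000651. The pattern receptor Tlr2 rose by 2.33 ± 0.13, the Fc receptor Fcgr1 by 1.56 ± 0.07 and the inhibitory receptor Lilrb4a by 3.86 ± 0.25 on the log2 scale (SE). Lilrb4a was well above background in 3 of 4 controls. The single fall was Apoe, the lipid carrier of astrocytes and microglia, with levels of 15.58, 15.26, 15.56 and 15.48 in floxed cryolesioned animals, against 16.35, 16.11, 16.35 and 16.58 in Il6-deficient controls. Its log2 difference was -1.12 ± 0.08 (SE), adjusted p = 0.00111.

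The list of resting microglia genes moved both ways: 10 of 28 rose and 4 fell, with a median of 0.26. Its highest log2 difference was that of Gpr84 (2.64), which is counted among the rises. Whether each member marks resting cells was not tested. The count of rises was 6 without shared array 2, and that of falls 0 without shared array 1, 0 without shared array 2 and 2 without deficient-lesion array 2. Cx3cr1 had levels of 12.18, 12.14, 12.19 and 12.48 in floxed cryolesioned animals, against 11.01, 10.68, 10.84 and 11.05 in Il6-deficient controls. The groups did not overlap, and the log2 difference was 1.29 ± 0.10 (SE), adjusted p = 0.00114. P2ry12, an ADP receptor that guides microglial processes, had levels of 6.92, 7.07, 7.77 and 7.34 in floxed cryolesioned animals, against 8.92, 8.65, 8.88 and 9.05 in Il6-deficient controls. Every floxed cryolesioned animal lay below every control, and the log2 difference was -1.58 ± 0.31 (SE), adjusted p = 0.0202. Slc2a5, a fructose transporter of microglia, had levels of 6.78, 6.88, 7.92 and 7.52 in floxed cryolesioned animals, against 8.61, 8.71, 8.72 and 8.82 in Il6-deficient controls, and a log2 difference of -1.55 ± 0.26 (SE), adjusted p = 0.0125. The adjusted p of P2ry12 was 0.141 without shared array 1, 0.148 without shared array 2 and 0.0519 without deficient-lesion array 2, and that of Slc2a5 0.0963 without shared array 1 and 0.102 without shared array 2. Tmem119, a microglial membrane protein, had a log2 difference of -0.52 ± 0.17 (SE), adjusted p = 0.0856, which did not pass. It passed with median centring (adjusted p = 0.0464) and with separate channels (0.00334). It also passed with the direct arrays alone (0.0272) and without both control arrays (0.0217), 2 settings that rest on the same shared arrays. Its difference was 0.15 from the indirect arrays alone. Of 18 complement genes 10 rose and 1 fell, with a median of 0.50. The rises were 6 without shared array 1 and 6 without shared array 2. The fall was that of C2 (-0.42 ± 0.09, SE), with an adjusted p of 0.129 without shared array 1, 0.135 without shared array 2, 0.055 without lesion array 2 and 0.0654 without deficient-lesion array 2. C1qb rose by 1.45 ± 0.09 and C4b by 2.30 ± 0.15 on the log2 scale (SE).

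The loop split the difference of Cx3cr1 between its parts. Between uninjured groups, floxed control minus Il6-deficient control was 1.00 ± 0.10 (SE, adjusted p = 0.534), the smallest p of any named gene in that comparison but not past the test. Floxed cryolesioned minus floxed control was 0.28 ± 0.11 (SE). Il6-deficient cryolesioned minus floxed control was -0.57 ± 0.10 (SE). The difference between the 2 cross-genotype lesion effects, floxed cryolesioned minus Il6-deficient control less Il6-deficient cryolesioned minus floxed control, was 1.86 ± 0.11 (SE, adjusted p = 0.023). The lesion cancels in this difference, which is the sum of the genotype differences, floxed minus Il6-deficient, of uninjured and cryolesioned cortex. Cx3cr1 was the single gene past that test among 29362 (0.00341%), where 4146 had an unadjusted p under 0.05. With sex as a covariate, given the Xist-positive animals above, 1584 genes passed that test, 420 higher and 1164 lower. On the arrays other than control array 2, the Xist-positive animals were exactly the floxed controls. Control array 2 alone therefore set the sex term, and the 1584 calls rest on it. For floxed cryolesioned minus Il6-deficient control, this fit and the fit without control array 2 both had 9071 features with unadjusted p under 0.05. The call of Cx3cr1 was lost with median centring, with the processed intensities and without a dye term. Leaving out single arrays, the test gave 168 genes without deficient-lesion array 1, 4 without control array 2 and 0 without each of the other 6 arrays. Of 11 genes of the Cx3cr1 chromosomal neighbourhood, Cx3cr1 included, 3 rose between the groups and 0 fell. The median of these 11 was -0.000132, and 6.76% of all features rose. The rises numbered 1 without shared array 1 and 1 without shared array 2.

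Markers of blood leukocytes rose in part. Of 24 markers of monocytes and border macrophages, 17 rose and 0 fell, with a median of 0.82. The count was 9 without control array 1, 6 without shared array 2, 7 without lesion array 2 and 7 without deficient-lesion array 2, and 10 with no filter on dim probes. Clec4d, a lectin receptor of monocytes and neutrophils, was at least 3.93-fold higher (adjusted p = 0.00598), with no control well above background. Ms4a6c, with 3 of 4 controls well above background, rose by 1.51 ± 0.13 on the log2 scale (SE). Of 14 neutrophil markers, 13 were on the array and 9 passed the filter on dim probes, which the floxed cryolesioned animals alone can meet. Of these 9, 4 rose and 0 fell, with a median of 0.46 (0.183 without shared array 2). S100a9, a subunit of the neutrophil protein calprotectin, had levels of 9.46, 11.46, 10.95 and 10.98 in floxed cryolesioned animals, against 7.13, 7.05, 7.21 and 7.90 in Il6-deficient controls. The groups did not overlap, and the log2 difference was 3.00 ± 0.27 (SE), adjusted p = 0.00182. Its partner S100a8 rose by 2.73 ± 0.31 and the decoy receptor Il1r2 by 1.89 ± 0.19 on the log2 scale (SE). The fourth rise was that of Mpo, with an adjusted p of 0.0491 with all arrays, 0.0909 without control array 1, 0.192 without shared array 1, 0.289 without shared array 2, 0.12 without lesion array 2 and 0.0865 without deficient-lesion array 2. Of 17 lymphocyte markers, 15 were on the array and 8 passed the filter on dim probes, so that the rest were not tested. None of the 8 passed the test. Their mean level was 7.24, 7.19, 7.38 and 7.28 in floxed cryolesioned animals, against 7.21, 7.14, 7.14 and 7.16 in Il6-deficient controls. Of 9 erythroid and platelet markers 1 rose, Pf4, a platelet chemokine, where 6.76% of all features rose. None of the 9 rose without control array 1, shared array 2, lesion array 2 or deficient-lesion array 2.

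Genes of heme, metals and oxidative stress rose in 14 of 31 cases and fell in 1, with a median of 0.44. The fall was that of the iron exporter Slc40a1, whose adjusted p was 0.0151 with all arrays, 0.109 without shared array 1 and 0.117 without shared array 2. The count of rises was 5 without shared array 1, 5 without shared array 2 and 9 without lesion array 2. Hmox1, which degrades heme, had levels of 12.27, 13.13, 11.72 and 13.07 in floxed cryolesioned animals, against 8.38, 8.20, 8.47 and 8.22 in Il6-deficient controls. All floxed cryolesioned animals lay above the controls, and the log2 difference was 3.92 ± 0.42 (SE), adjusted p = 0.00289. The metallothionein Mt2 had levels of 17.38, 17.80, 16.23 and 17.19 in floxed cryolesioned animals, against 15.11, 15.26, 14.83 and 15.27 in Il6-deficient controls, and a log2 difference of 2.17 ± 0.37 (SE), adjusted p = 0.0126. Its adjusted p was 0.0864 without shared array 1 and 0.0998 without shared array 2. Cyba, a subunit of the phagocyte oxidase, rose by 2.08 ± 0.19 on the log2 scale (SE).

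The small heat shock protein Hspb1 had levels of 14.73, 15.25, 12.03 and 13.97 in floxed cryolesioned animals, against 10.34, 10.23, 12.51 and 13.34 in Il6-deficient controls. The groups overlapped: controls 3 and 4 lay above floxed cryolesioned animal 3. The log2 difference was 1.93 ± 0.31 (SE), adjusted p = 0.0108, and the adjusted p was 0.06 without shared array 1 and 0.0929 without shared array 2. Of 19 heat shock genes 5 rose and 0 fell, with a median of 0.40. The median was 0.229 without shared array 1, 0.168 without shared array 2 and -0.39 from the indirect arrays alone. The rises numbered 9 without control array 2, 1 without shared array 1 and 1 without shared array 2, and 2 genes fell without control array 2. Genes of cell death and growth arrest rose in 15 of 30 cases with no fall and a median of 0.48. Their number was 6 without shared array 1 and 6 without shared array 2. The inflammatory caspase Casp4 rose by 1.44 ± 0.08 and the inflammasome adaptor Pycard by 1.93 ± 0.14 on the log2 scale (SE). Genes of cell division rose in 10 of 25 cases with no fall and a median of 0.67. Their number was 6 without shared array 1. Mcm3, part of the replicative helicase, had levels of 9.97, 9.79, 10.004 and 10.18 in floxed cryolesioned animals, against 8.18, 8.02, 8.20 and 7.92 in Il6-deficient controls. Its groups did not overlap, and the log2 difference was 1.86 ± 0.10 (SE), adjusted p = 0.000385.

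Excitatory and pan-neuronal genes had the lowest median of the 35 lists. Of 32 that were measured, 19 fell and 0 rose, and the median log2 difference was -0.77. The count of falls was 11 without control array 1, 12 without shared array 1, 7 without shared array 2, 10 without lesion array 2 and 10 without deficient-lesion array 2. Camkk2, a kinase upstream of AMPK and CaM kinases, had levels of 13.26, 13.01, 13.74 and 13.55 in floxed cryolesioned animals, against 14.86, 15.32, 15.37 and 15.08 in Il6-deficient controls. Every floxed cryolesioned animal lay below every control, and the log2 difference was -2.17 ± 0.17 (SE), adjusted p = 0.00125. Itpka, an inositol trisphosphate kinase of dendritic spines, had levels of 12.96, 12.48, 13.71 and 13.64 in floxed cryolesioned animals, against 14.92, 14.998, 15.05 and 14.56 in Il6-deficient controls, and a log2 difference of -2.09 ± 0.11 (SE), adjusted p = 0.000456. Stx1a, a syntaxin of the presynaptic release machinery, had levels of 10.57, 10.67, 11.21 and 10.90 in floxed cryolesioned animals, against 11.90, 12.31, 12.24 and 12.23 in Il6-deficient controls. Its groups did not overlap, and the log2 difference was -1.58 ± 0.07 (SE), adjusted p = 0.000295. Kalrn, an exchange factor of dendritic spines, fell by 2.03 on the log2 scale. The list's mean level was 12.42, 12.29, 12.20 and 12.29 in floxed cryolesioned animals, against 12.86, 13.08, 13.04 and 13.03 in Il6-deficient controls, with no overlap. Of 22 genes of inhibitory neurons, 8 fell and none rose, with a median of -0.42. The falls numbered 5 without shared array 1, 2 without shared array 2 and 5 without lesion array 2. The neuropeptide Cort fell by 1.30 on the log2 scale.

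Genes of injured and regenerating neurons moved the other way, 12 of 27 higher and 1 lower with a median of 0.61. The rises were 5 without shared array 1 and 5 without shared array 2. The fall was that of Stmn4, with an adjusted p of 0.0449 with all arrays, 0.0709 without control array 1, 0.0796 without shared array 1, 0.17 without shared array 2, 0.0731 without lesion array 1, 0.11 without lesion array 2 and 0.0942 without deficient-lesion array 2. Tubb6, a beta-tubulin, had levels of 12.70, 13.03, 10.85 and 12.32 in floxed cryolesioned animals, against 7.17, 7.06, 8.03 and 8.44 in Il6-deficient controls. Every floxed cryolesioned animal lay above every control, and the log2 difference was 4.40 ± 0.28 (SE), adjusted p = 0.000755. Ecel1, a peptidase of injured neurons, rose by 2.07 ± 0.19 (SE), and Sprr1a, a small proline-rich protein of regenerating neurons, was at least 1.75-fold higher (adjusted p = 0.00474). Of 30 activity-regulated genes, 11 rose and 2 fell, with a median of 0.61 (0.267 without shared array 1). The rises were 4 without shared array 1, 4 without shared array 2 and 5 without lesion array 2. The falls were those of Egr3 (adjusted p 0.0749 without shared array 1) and Homer1 (adjusted p 0.0672 without shared array 1 and 0.072 without shared array 2). Arc, an immediate-early gene of active neurons, had levels of 13.61, 13.94, 12.69 and 13.62 in floxed cryolesioned animals, against 12.66, 13.92, 11.44 and 11.89 in Il6-deficient controls. The levels overlapped, and the log2 difference fitted to the array ratios was 1.91 ± 0.17 (SE), adjusted p = 0.0018, against an adjusted p of 0.103 when the channels were fitted separately.

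Other large falls were those of single genes with various roles. Plk5, a polo-like kinase of the brain, had levels of 8.45, 8.57, 10.46 and 8.39 in floxed cryolesioned animals, against 10.64, 11.29, 11.24 and 10.98 in Il6-deficient controls. Floxed cryolesioned animal 3 lay closest to the controls, and the log2 difference was -2.34 ± 0.37 (SE), adjusted p = 0.00981. The adjusted p of Plk5 was 0.0638 without shared array 1 and 0.0839 without shared array 2. Frzb, a secreted inhibitor of Wnt signals, had levels of 7.05, 7.01, 7.93 and 6.93 in floxed cryolesioned animals, against 9.04, 8.79, 8.97 and 9.19 in Il6-deficient controls. Animal 3 again lay closest to the controls, and the log2 difference was -1.93 ± 0.16 (SE), adjusted p = 0.00141. Gpr17, a receptor of maturing oligodendrocyte precursors, had levels of 9.86, 9.05, 10.56 and 9.53 in floxed cryolesioned animals, against 11.48, 11.71, 11.55 and 11.49 in Il6-deficient controls, and fell by 1.85 on the log2 scale (adjusted p = 0.00578). Gpr17 and Cspg5 were the 2 falls among 16 precursor genes, of which 0 rose, where 7.97% of all features fell. The median of the 16 was 0.006. Hes5, a Notch target, had a log2 difference of -1.89 ± 0.36 (SE), adjusted p = 0.0179, with an adjusted p of 0.119 without shared array 1 and 0.12 without shared array 2. Cd34, a sialomucin of endothelium, had levels of 11.45, 11.28, 11.93 and 11.41 in floxed cryolesioned animals, against 12.99, 13.26, 13.06 and 12.93 in Il6-deficient controls. Its groups did not overlap, and the log2 difference was -1.73 ± 0.12 (SE), adjusted p = 0.000933.

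Around the vessels, 9 of 23 genes of vascular activation and adhesion rose and 1 fell, Cd34, with a median of 0.69 (0.371 without shared array 2). The count of rises was 3 without shared array 1, 4 without shared array 2, 14 without lesion array 1 and 4 without lesion array 2. Ch25h, which makes 25-hydroxycholesterol, rose by 3.53 ± 0.28 on the log2 scale (SE). Of 27 endothelial and mural genes, 3 rose and 4 fell, where 6.76% of all features rose and 7.97% fell. Their median of 0.02 changed sign with the scaling (-0.05 with the processed intensities). The rises were 1 without shared array 2, 5 without lesion array 1 and 1 without lesion array 2, and the falls 2 without shared array 2. Matrix and fibroblast genes rose in 16 of 32 cases with no fall and a median of 0.63. The rises numbered 5 without shared array 1 and 7 without shared array 2. Mmp3 (stromelysin) had levels of 8.06, 9.09, 7.59 and 8.73 in floxed cryolesioned animals, against 5.97, 5.88, 5.999 and 5.83 in Il6-deficient controls. No control was well above background, so that the difference was at least 5.15-fold (adjusted p = 0.00291). The integrin ligand Tgfbi rose by 3.06 ± 0.26 on the log2 scale (SE).

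**Figure D2:**
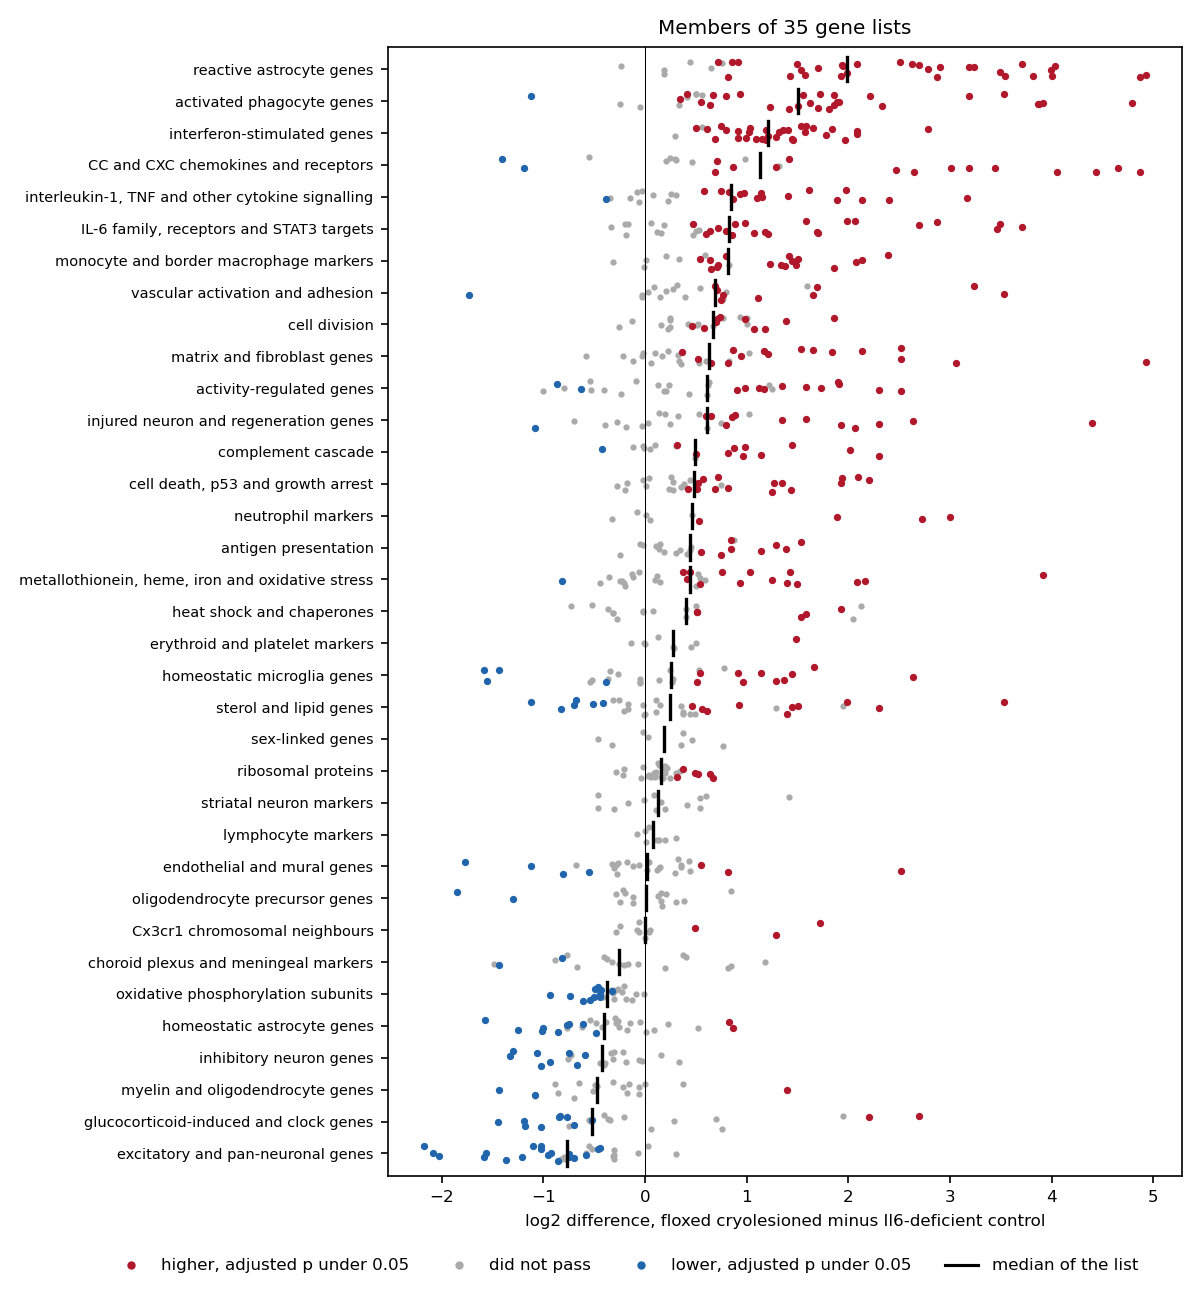
Log2 difference, floxed cryolesioned minus Il6-deficient control, of each measured member of 35 gene lists (points, one row a list) with the list's median (bar). Reactive astrocyte, activated phagocyte, interferon and chemokine lists lie to the right of 0, with medians of 1.99, 1.504, 1.21 and 1.13, and excitatory neuronal genes to the left, with a median of -0.77.

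Of 19 myelin and oligodendrocyte genes 2 fell and 1 rose, where 7.97% of all features fell and 6.76% rose. Their median was -0.47 with all arrays. The median was -0.037 without shared array 2 and 0.25 from the indirect arrays alone. The falls numbered 1 without shared array 1, 1 without shared array 2, 1 without lesion array 2, 7 without deficient-lesion array 1 and 1 without deficient-lesion array 2. The rise was that of the iron carrier Trf, with an adjusted p of 0.0698 without shared array 1 and of 0.0629 without shared array 2. Subunits of oxidative phosphorylation fell in 11 of 24 cases, with a median of -0.37 (-0.149 with median centring). The falls numbered 1 without shared array 1, 0 without shared array 2, 5 without lesion array 1, 1 without lesion array 2 and 1 without deficient-lesion array 2, 1 with median centring and 0 with the processed intensities. Ribosomal proteins rose in 6 of 30 cases with a median of 0.16 (0.486 with median centring). The rises numbered 2 without shared array 1 and 1 without shared array 2, and 11 with median centring. Of 34 sterol and lipid genes, 10 rose and 6 fell, with a median of 0.25 (0.167 without shared array 1). The rises were 6 without shared array 1 and 4 without shared array 2, and the falls 3 without shared array 1, 1 without shared array 2, 2 without lesion array 2 and 2 without deficient-lesion array 2. The lipid droplet protein Plin2 rose by 2.31 ± 0.18 on the log2 scale (SE). Of 23 genes of the glucocorticoid response and the clock, 9 fell and 2 rose, Lcn2 and Cdkn1a, with a median of -0.52. Without shared array 2 the falls were 4. The adjusted p of Cdkn1a, an inhibitor of the cell cycle, was 0.0294 with all arrays, 0.0647 without control array 1, 0.143 without shared array 1, 0.189 without shared array 2, 0.0791 without lesion array 2 and 0.0551 without deficient-lesion array 2. The clock genes Cry2 and Per3 fell by 1.19 and by 1.02 on the log2 scale, and the glucocorticoid receptor Nr3c1 fell by 0.84.

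Markers of tissue beside the cortex varied between animals. Striatal neuron markers had a mean level of 10.56, 9.53, 11.29 and 10.80 in floxed cryolesioned animals, against 10.50, 10.40, 10.42 and 10.86 in Il6-deficient controls. Floxed cryolesioned animal 2 was the lowest and animal 3 the highest of all 8. None of 14 striatal markers passed the test. Their median log2 ratio was 0.03 on shared array 1 and -1.33 on shared array 2, against 2.64 over the other 6 arrays. Tac1, the striatal neuropeptide precursor of substance P, had levels of 11.12, 9.96, 13.12 and 12.22 in floxed cryolesioned animals, against 11.81, 11.32, 11.38 and 12.02 in Il6-deficient controls, with wide overlap. Its log2 difference was 0.20 ± 0.95 (SE), adjusted p = 0.923. Markers of choroid plexus and meninges had a mean level of 8.74, 8.79, 8.28 and 8.30 in floxed cryolesioned animals, against 8.91, 8.50, 8.59 and 9.38 in Il6-deficient controls. Control 4 was the highest, and 2 of 19 markers fell, Enpp2 and Igf2, where 7.97% of all features fell. None rose, but 3 rose and 1 fell without control array 2, and 2 rose and 1 fell without lesion array 1. The list's median was -0.25 with all arrays, 0.14 without shared array 2 and -0.0204 from the indirect arrays alone. The adjusted p of Igf2 was 0.0526 without control array 2, 0.186 without shared array 1, 0.208 without shared array 2, 0.0505 without lesion array 1 and 0.0929 without deficient-lesion array 2. The myelin list's mean level was 11.79, 10.93, 11.81 and 11.64 in floxed cryolesioned animals, against 12.07, 11.63, 11.94 and 11.95 in Il6-deficient controls, with animal 2 again the lowest. The part of these markers, and of the weaker injury lists of floxed cryolesioned animal 3, in the gene differences was not tested.

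**Figure D3:**
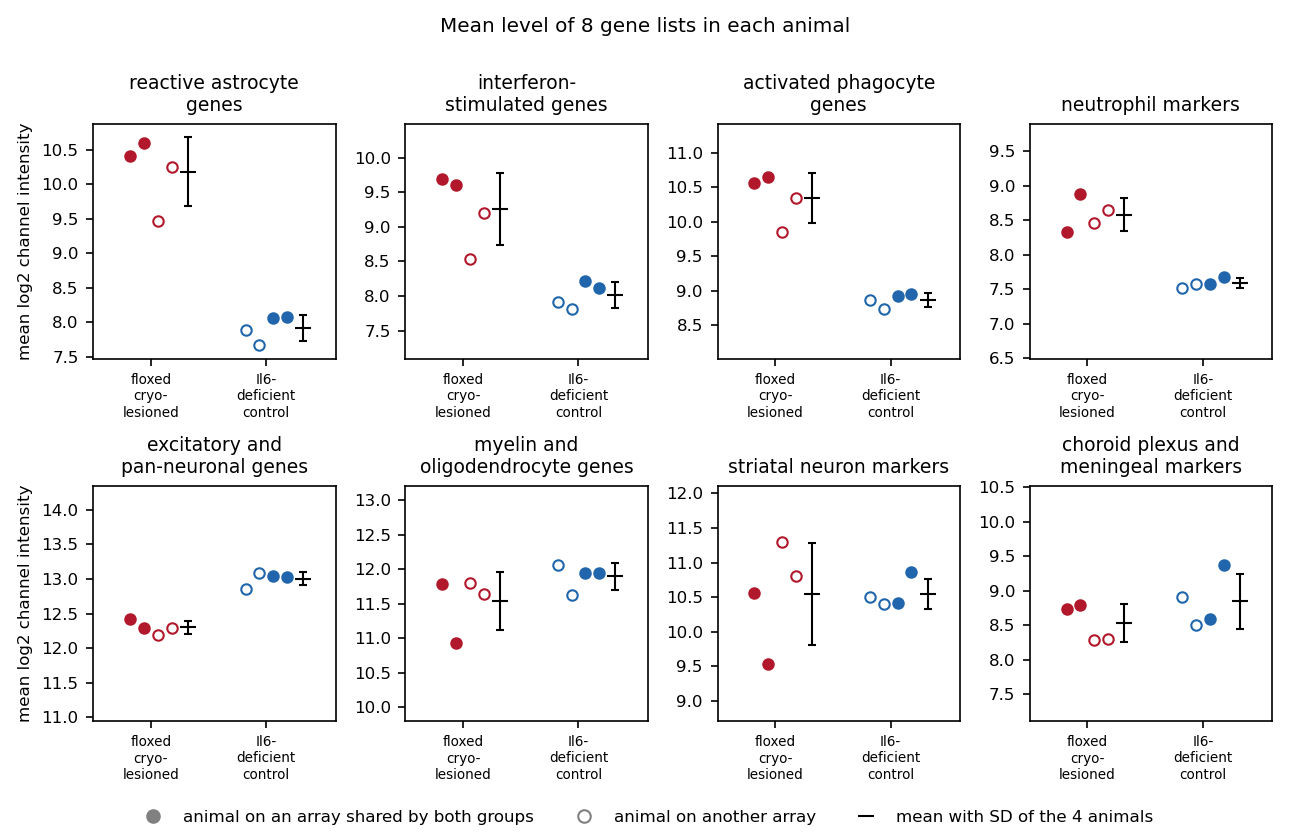
Mean level (log2 channel intensity) over the members of 8 gene lists in each floxed cryolesioned animal (left) and each Il6-deficient control (right), with all axes spanning the same range; filled points are animals on an array that held both groups. The astrocyte, interferon, phagocyte and neutrophil lists separate the groups, excitatory neuronal genes do so in the other direction, and the striatal and choroid lists overlap.

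The 2 shared arrays gave the comparison directly, and the other 6 arrays gave it through the remaining groups. Over the 569 rises of at least 2-fold, the median log2 ratio was 1.604 on shared array 1 and 1.75 on shared array 2, against 1.13 by the indirect path. Over the 340 falls it was -1.06 and -1.16, against -1.45. These rises and falls were chosen by a fit in which the shared arrays carry 75% of the weight. No gene passed the limma test of direct minus indirect, in which 1992 had an unadjusted p under 0.05. Without shared array 1 it gave 10 genes, and without control array 1 it gave 1. Ccl4 had the smallest p of the named genes there. Its log2 ratio was 4.90 and 4.94 on the shared arrays, against 3.00 by the indirect path. Slc2a5 had ratios of -1.94 and -1.94, against -0.39. Tac1 had ratios of -0.26 and -2.06, against 4.26, so that the paths differed in sign. From the 6 indirect arrays alone, 26 genes passed the test of the group difference, all higher.

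**Figure D4:**
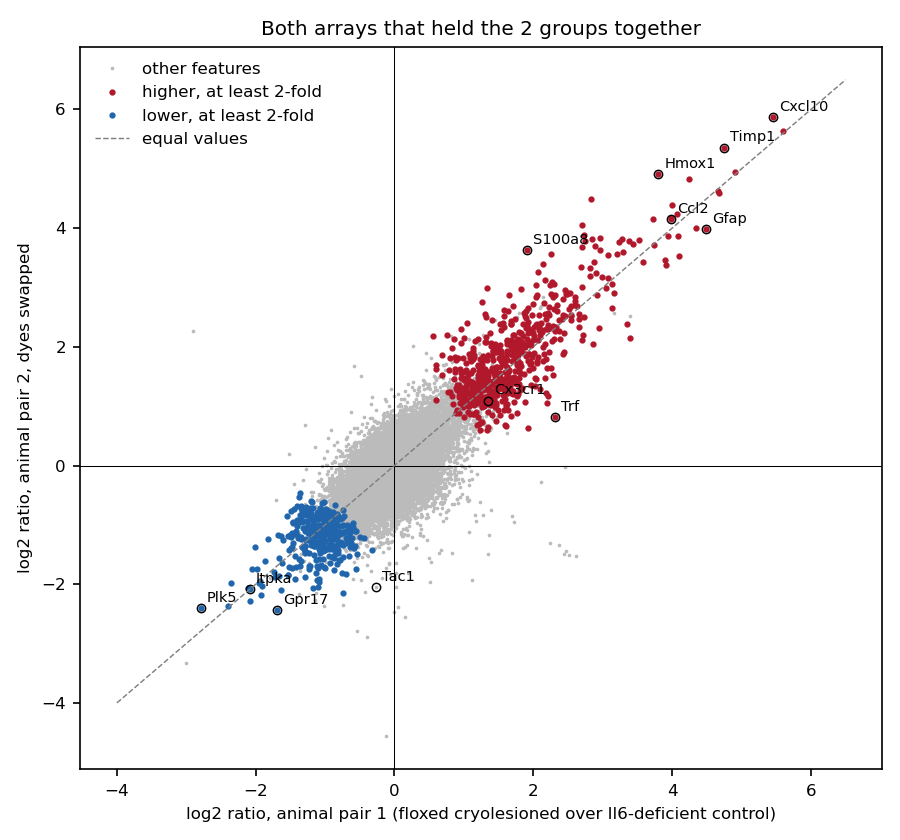
Log2 ratio, floxed cryolesioned over Il6-deficient control, of each feature tested on shared array 1 (x axis) and shared array 2 (y axis), with the genes that rose or fell at least 2-fold coloured. The coloured points lie at the upper right and lower left, with medians of 1.604 and 1.75 for the rises and -1.06 and -1.16 for the falls. They were chosen by a fit in which these 2 arrays carry 75% of the weight, so that the choice favours a shared sign.

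**Figure D5:**
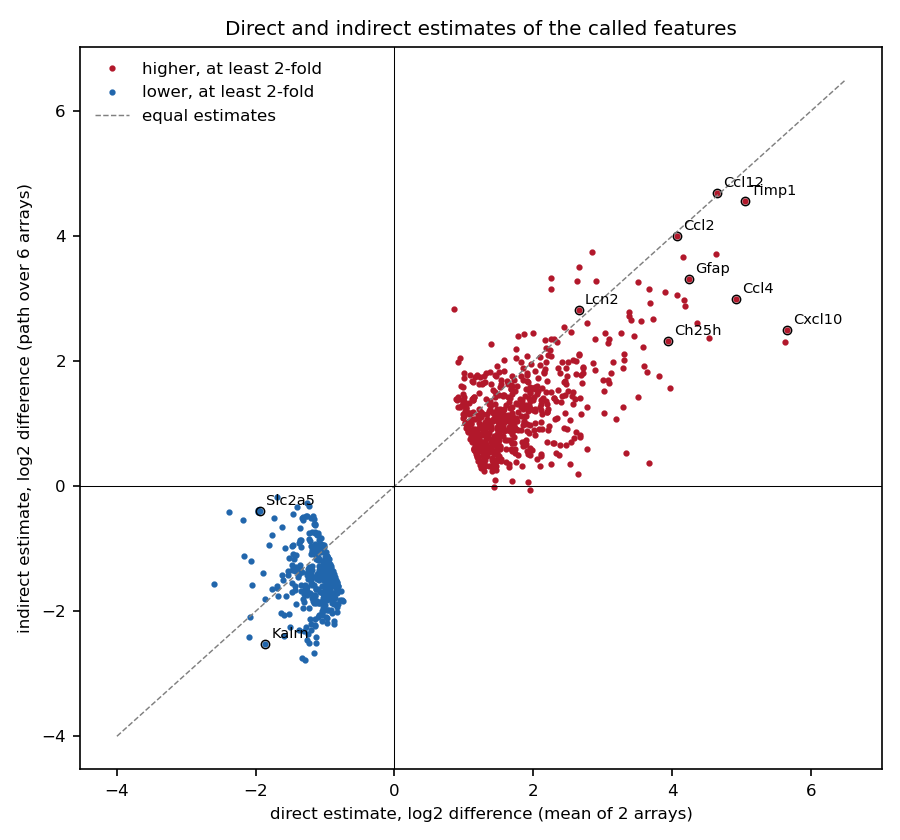
Log2 difference of the genes past the test at least 2-fold from the 2 shared arrays (x axis) and from the other 6 arrays (y axis). Rises lie mostly below the line of equality, with an indirect median of 1.13, and falls lie below it too, with an indirect median of -1.45.

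In the closed loop, the difference is the sum of floxed cryolesioned minus floxed control and floxed control minus Il6-deficient control. Over the 569 rises these parts had medians of 1.23 and 0.29, over the 340 falls -0.88 and -0.33, and over all features -0.01 and -0.01. The rises and falls were chosen on the sum of these parts, so that the choice itself moves both medians in its direction. The medians of Il6-deficient cryolesioned minus floxed control, the other lesion comparison across genotypes, were 0.94 over the rises and -0.49 over the falls. The comparisons share animals with each other. Floxed cryolesioned minus floxed control called 896 genes (3.05%) and Il6-deficient cryolesioned minus floxed control 400 (1.36%). Floxed control minus Il6-deficient control called none with limma, and 1299 had an unadjusted p under 0.05. It called 3 without control array 2 and none without each of the other arrays. The first of these comparisons has no array that holds both its groups. Its estimate is less precise by construction, with an SD of 0.707 of an array's error against 0.612 for floxed cryolesioned minus Il6-deficient control, and counts across comparisons are not set against each other here.

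Il6-deficient controls 3 and 4, hybridised beside floxed cryolesioned animals, both lay above controls 1 and 2 in 217 of the 569 rises, against 4022 of 29362 features tested. Lcn2, Ccl2, Socs3 and Hspb1 were among them. Floxed cryolesioned animals 1 and 2, which sat on the same arrays, exceeded animals 3 and 4 by a median of 0.54 over the 569 rises and of -0.002 over all features. The rises were chosen by a fit in which the arrays of animals 1 and 2 carry 75% of the weight. Array neighbour and animal cannot be told apart for these levels, since each animal was hybridised once. The log2 ratio of Lcn2 on the shared arrays was 2.63 and 2.68, against 2.81 by the indirect path. For Ccl2 it was 3.99 and 4.16, against 4.00. Without both control arrays, a setting added after the data were seen, 938 genes passed the test at least 2-fold, against 909 with all arrays. The Il6-deficient controls are then on the shared arrays only, and the median over all features was -0.0194, as with the direct arrays alone. That setting keeps controls 3 and 4 and drops controls 1 and 2, so that its count does not bear on their levels.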

How the data were processed

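RNA of 16 mouse cortices was measured on 8 two-colour Agilent arrays, all on 1 slide with 1 scan time, so that no batch could be tested. Per the file headers, the deposited files hold red and green spot intensities extracted with Agilent Feature Extraction 10.7.3.1 from an array designed on mm9, together with the software's processed intensities and its log10 ratio. The authors also deposited a table of log2 ratios, whose scale and direction were read by setting each column against its array: correlations with the ratios made here were 0.966 to 0.977, with slopes of 1.11 to 1.25, and the centring of the authors' ratios is unknown. Labels give red (Cy5) as channel 1 and green (Cy3) as channel 2, and dyes were swapped between the 2 arrays of each pair of groups. Columns that match no sample numbered 0.

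Median spot and background intensities were corrected with normexp (offset 50) and ratios normalised by loess within arrays. Control spots and outlier spots (115 to 194 an array) were left out, and 37352 of 56605 probes were kept, those that the scanner software marked above background in 4 or more of the 16 channels. Probes were named through RefSeq accessions (32994 named, 23611 not). The brightest probe stood for each of the 6259 genes with several, and in 9 of these genes probes were called in opposite directions. The 29362 features (16852 named) were fitted with limma 3.58.1 in R 4.3.3, with a dye term and the groups as a loop, 4 residual degrees of freedom and 2.95 prior ones. Adjusted p-values are Benjamini-Hochberg over all features, with calls under 0.05. The 4 missing ratios were left out of their probes' fits. A level is the log2 intensity of one channel, after loess and then Aquantile scaling. An "at least" fold sets the group above background against the array's lowest well-measured signal where no animal of the other group exceeded background, and it is open to dye bias in single animals. In simulated data of 29362 features, 67, 67 and 66 genes were changed by 0.5, 1 and 2 on the log2 scale, with independent normal errors. The fit called 19.4%, 50.7% and 92.4% of them, with 3 false calls among the unchanged features. Far fewer genes were changed than passed in the data, and no error shared between arrays or animals was simulated. These rates therefore need not hold for the data.

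Named genes were the 15 largest rises and 15 largest falls whose shared arrays had 1 sign, the 10 smallest p-values for direct minus indirect, for the uninjured groups and for the 2 cross-genotype lesion effects, up to 4 members a list and direction, and 15 genes chosen by name. The groups, the 35 lists and the tests were chosen with earlier results of these data known. Alternatives were each array left out, other normalisations, filters, probes and dye terms, separate channels, sex as a covariate, a replicate block, and direct or indirect arrays alone.

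A few results are not reported here.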

Additional observations from a re-analysis of the deposited data

Results flagged for a closer look

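In 12 of the 150 groups of 4 animals tested, 1 animal stood apart from the other 3 by Dixon's test, where chance gives about 1 in 20. Floxed cryolesioned animal 3 was the one in 5 of them. Its level was 12.84 for Cebpd, against 13.30 to 13.32 in the other 3 animals of its group. It was 7.93 for Frzb, against 6.93 to 7.05, and 10.46 for Plk5, against 8.39 to 8.57. Its mean level was 9.22 over the interleukin-6 list, against 9.73 to 9.77, and 8.64 over the cell death list, against 8.97 to 9.02.

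Among the other floxed cryolesioned animals, animal 4 had a Cx3cr1 level of 12.48, against 12.14 to 12.19 in the others. Animal 1 had a mean level of 14.82 over the ribosomal proteins, against 14.92 to 14.94.

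Among the Il6-deficient controls, control 2 had a Cxcl10 level of 6.10, against 6.79 to 6.80 in the others. Its mean level was 8.13 over the interleukin-1 and TNF list, against 8.26 to 8.27, and 7.24 over the sex-linked genes, against 8.11 to 8.23. Control 2 was the 1 Il6-deficient control with Xist above background, and 0 of its 4 Y-linked genes were. Control 1 had an Osmr level of 7.36, against 7.51 to 7.53, and a mean level of 9.28 over endothelial and mural genes, against 9.34 to 9.36.

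For Cx3cr1, the 2 comparisons of a cryolesioned group with the controls of the other genotype differed. The lesion cancels in that difference, which is the sum of the genotype differences, floxed minus Il6-deficient, of uninjured and cryolesioned cortex. Floxed cryolesioned minus Il6-deficient control exceeded Il6-deficient cryolesioned minus floxed control by 1.86 on the log2 scale (limma, adjusted p = 0.0230). The call was lost with median centring, with the processed intensities, without a dye term and without each of 6 of the 8 arrays.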

How the results depend on the processing

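Of 29362 features, 4325 passed the test of floxed cryolesioned minus Il6-deficient control. Leaving out 1 array at a time gave 844 to 5016 calls, and 475 to 991 of at least 2-fold in place of 909. Calls numbered 2772 with the processed intensities (1586 of at least 2-fold), 7612 with separate channels and 26, all at least 2-fold, from the indirect arrays alone. The split of higher and lower calls was 1985 and 2340 in the fit reported, 1193 and 1820 with median centring, 1369 and 1403 with the processed intensities, 2057 and 1989 with the authors' value table, and 2091 and 2127 with an offset of 16. Direct minus indirect gave 0 calls, and 0 to 10 without single arrays. Floxed control minus Il6-deficient control gave 0, 0 to 3 without single arrays, and 1 with separate channels. The difference between the cross-genotype lesion effects gave 1, 0 to 168 without single arrays, and 0 with median centring, the processed intensities or no dye term. It gave 1584 with sex as a covariate, a term set by control array 2 alone. The cause of these changes was not tested, except that fewer arrays were fitted where arrays were left out.

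Correlations of same-numbered animals were 0.039, 0.310, -0.098 and 0.028 for numbers 1 to 4. The highest correlations with another number were 0.193, 0.184, 0.205 and 0.128, so that number 2 alone exceeded its own. Some same-numbered animals shared an array, so that these values do not settle whether the numbers pair animals. The fit reported did not pair them. With the replicate block, 2014 features passed (867 higher and 1147 lower), 815 of them at least 2-fold, and the difference between the cross-genotype lesion effects gave 0. No gene named in the report changed sign past the test under any setting. Over the genes and settings tried, 3331 values stayed on their side of the threshold, 429 fell back across it and 23 newly passed. The share of probes above background, 59.2% to 65.9%, limits what could be measured, and dim genes such as Il6 have bounds only. With the processed intensities the median log2 difference was 2.86 for chemokines, 1.76 for monocyte markers, 1.63 for neutrophil markers, 0.784 for complement, 0.825 for antigen presentation, 1.02 for matrix genes, 0.824 for cell death and 1.10 for cell division.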
